A study of Bos taurus with 53 samples.

Results

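Integrins and laminins are the receptors and ligands through which epithelial cells hold on to the basement membrane under them. A laminin is a trimer of an alpha, a beta and a gamma chain that assembles into a sheet outside the cell, and an integrin is a pair of an alpha and a beta chain that spans the cell membrane, binds laminin or another matrix protein, and passes the hold on to the actin or keratin skeleton. In an elongating bovine embryo such sheets lie between the epiblast, the hypoblast and the trophectoderm, and integrins of the trophectoderm face the uterus. The genes described here are those whose symbol names an integrin alpha chain, an integrin beta chain or a laminin chain: 36 of 24596 features in the table of counts, made up of 17 integrin alpha chains, 7 integrin beta chains and 12 laminin chains. No measured value was used to choose them. ITGB3 and ITGAX are not analysed here.

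RNA was sequenced from Bos taurus embryos flushed from recipient cows on day 14 and cut into the embryonic disc (ED) and the extraembryonic tissue (EX). All embryos came from oocytes matured and fertilised in vitro. Maturation was in CONTROL medium with neither fatty acids nor solvent, in BASAL medium with 28 µM stearic, 23 µM palmitic and 21 µM oleic acid in 0.45% ethanol, or in HIGH PA medium, where palmitic acid was raised to 150 µM and the rest was as in BASAL. There were 12 BASAL, 8 HIGH PA and 3 CONTROL discs, 14 BASAL, 10 HIGH PA and 4 CONTROL extraembryonic samples, and 2 undissected HIGH PA embryos (EXED), which enter no comparison. Embryos were tubular, ovoid or spherical, the last being 2 of the extraembryonic samples and 1 undissected embryo, and 23 embryos gave both parts. Discs were from 17 male and 6 female embryos and extraembryonic samples from 19 male and 8 female ones, with the sex of 1 not determined. The CONTROL embryos all came from 1 cow and the 30 embryos came from 7 cows in all, so some embryos of a group share a uterus.

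Discs held between 6814 and 6167850 exon reads, extraembryonic samples between 9810 and 19533821. Levels are given as CPM, the reads of a gene per 1000000 exon reads of its library, over the 22 discs and 27 extraembryonic samples with at least 10000 reads. Epiblast markers summed to a median of 583 CPM in discs and 78.1 in extraembryonic samples, and SOX2 was at 0 in 26 of 27 extraembryonic samples. The library labelled ED BASAL replicate 12 stood apart with a sum of 95.2 and no SOX2 reads. The sums of the tissues overlapped, since EX HIGH PA replicate 10 reached 330 CPM, of which DNMT3B made up 329, and the lowest HIGH PA disc held 275. Discs also carried trophectoderm transcripts, whose markers summed to 7583 to 20710 CPM there and 17389 to 37883 CPM in extraembryonic samples. In such tissue samples, fewer cells of a type and less RNA per cell cannot be told apart. The column names of 7 extraembryonic libraries carry a mark 2, and no label or header says what it means. The share of reads from mitochondrial genes reached 20.9% in 1 of them (EX BASAL replicate 11) and was at most 6.68% in extraembryonic libraries of at least 10000 reads without the mark, so results that these libraries touch are given with and without them.

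The same few chains carried most of the reads in both tissues. Per kilobase of exon, the scale on which genes can be compared, the order in discs was led by ITGB1 (175 ± 31.9 CPM per kb, mean ± SD, n = 22), the beta chain shared by most matrix receptors. ITGA5, the alpha chain of the fibronectin receptor, was at 73.6 ± 14.0, and LAMB1, the beta chain of the embryonic laminins, at 73.0 ± 18.3, a difference well inside their spread. LAMC1, the common gamma chain, followed at 45.3 ± 11.1, then ITGA6, a laminin receptor alpha chain, at 38.8 ± 8.63. LAMA1, the alpha chain of early embryonic basement membranes, was at 24.9 ± 7.63 and ITGB5, a beta chain that pairs with ITGAV, at 21.7 ± 4.61. LAMA5, the alpha chain found under most later epithelia, reached 16.9 ± 5.11, and ITGAV itself 15.2 ± 3.69. The last chain above the rest was ITGA3, another laminin receptor alpha chain, at 8.97 ± 4.30.

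In extraembryonic samples ITGB1 again led (111 ± 34.5 CPM per kb, n = 27), with LAMB1 at 64.6 ± 13.0, ITGA5 at 62.1 ± 17.2 and LAMC1 at 39.97 ± 16.8. ITGA6 was at 28.4 ± 11.1 and LAMA1 at 26.9 ± 10.7, which did not differ beyond their spread. ITGB5 (15.6 ± 4.04), ITGAV (12.9 ± 6.18) and LAMA5 (11.3 ± 3.01) were likewise within each other's spread, and ITGA3 was at 4.10 ± 1.07. The remaining 26 chains had means of at most 2.87 CPM per kb in discs and 1.89 in extraembryonic samples. Both tissues therefore had reads for a laminin set of LAMA1, LAMA5, LAMB1 and LAMC1 and for an integrin set of ITGB1 and ITGB5 with ITGA5, ITGA6, ITGAV and ITGA3.

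**Figure D1:**
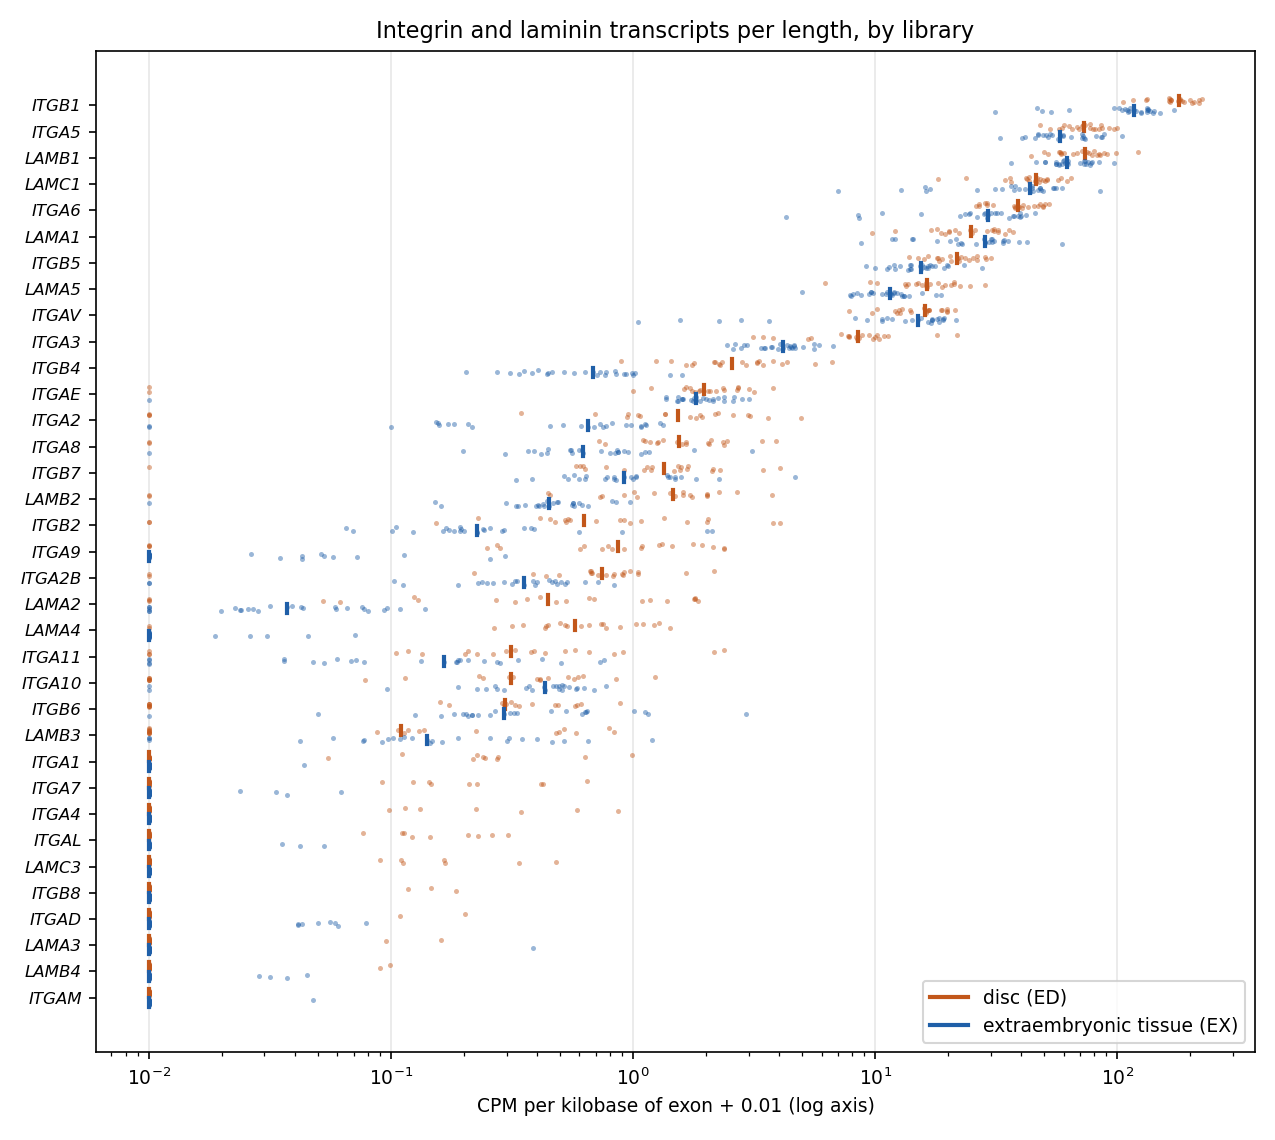
Level of 35 of the genes in every library of at least 10000 reads, as CPM per kilobase of exon plus 0.01 on a log axis, for discs (orange, n = 22) and extraembryonic tissue (blue, n = 27), with a bar at the median of each tissue. The 10 genes at the top hold the high values in both tissues, from ITGB1 to ITGA3, while the genes at the bottom sit at 0 (plotted at 0.01) in most libraries.

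At the other end, 13 genes did not pass the filter on low counts between tissues. The leukocyte integrin chains ITGAD, ITGAL and ITGAM had 3, 15 and 0 reads over all discs and 12, 3 and 1 over all extraembryonic samples. ITGA4, a chain of lymphocyte and mesoderm integrins, had 19 reads spread over 7 of 22 discs. No extraembryonic library had a read of ITGA4, of ITGB8, a beta chain that activates latent TGF-beta, or of the gamma chain LAMC3, which with 208096954 pooled reads allows up to 0.0144 CPM (counting error only). ITGB8 had 4 reads and LAMC3 had 15 in discs. ITGAM had no reads in discs, which allows up to 0.0566 CPM.

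ITGA1, a collagen receptor chain, had 21 reads in 10 discs and 1 in extraembryonic tissue, and ITGA7, a laminin receptor chain of muscle, had 29 reads in 9 discs and 4 in extraembryonic tissue. ITGA10 (71 reads in discs and 300 in extraembryonic tissue), ITGB6 (44 and 180) and LAMB3 (52 and 157) were found in both tissues, and passed the filter within extraembryonic tissue alone. LAMA3 had 4 reads in each tissue, all those of extraembryonic tissue in 1 library, and LAMB4 had 2 and 4. LAMA3 and LAMB3 are chains of the laminin of skin.

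With all embryos in the edgeR fit, each chain called between tissues was lower in extraembryonic tissue than in the disc. Other fits, given below, also called chains higher. Of the 23 chains tested, 15 were lower in extraembryonic tissue and 0 were higher at an adjusted p under 0.05 (edgeR quasi-likelihood test, each embryo a block, Benjamini-Hochberg over all features). The contrast is broad: 55.3% of the 11921 features tested were called, 24.5% higher and 30.8% lower. The median log2 fold change was -0.66 over the tested chains and -0.01 over all features. A chain with few extraembryonic reads passed the filter through the discs alone and had to differ, so these counts describe the chains that passed. By group, 6 of 10 tested integrin alpha chains were lower, 4 of 5 integrin beta chains and 5 of 8 laminin chains. DESeq2 called 17 of the 23, where it called 61.1% of all features.

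LAMA4, the laminin alpha chain of mesenchyme and vessels (ENSBTAG00000008817, chromosome 9, 38644309 to 38810902, UMD3.1), differed most. Discs held 0 to 8.20 CPM with a median of 3.27, and 22 of 27 extraembryonic libraries held 0, the highest being 0.356. In 20 of 22 discs it was above every extraembryonic library. The log2 fold change was -6.02 (SE 0.36, adjusted p = 3.22e-14). LAMA2, the alpha chain of muscle and mesenchyme laminin, lies on the same chromosome (68129101 to 68665593) and ran from 0 to 17.5 CPM in discs (median 4.12) and from 0 to 1.21 in extraembryonic tissue (median 0.257). It was lower in 19 of 22 embryos, and its change on the log2 scale was -3.54 (SE 0.34, adjusted p = 5.27e-10).

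ITGA9 (chromosome 22, 10946331 to 11306693), an alpha chain that binds tenascin, osteopontin and the fibronectin splice form of embryos, had 0 to 7.40 CPM in discs (median 2.68) and 0 in 16 of 27 extraembryonic libraries, with 0.889 as the highest. Its log2 fold change was -4.86 (SE 0.47, adjusted p = 5.78e-10). These 3 chains had so few extraembryonic reads (7 for LAMA4, 81 for LAMA2 and 17 for ITGA9) that the size of their change rests on small counts. None of the 3 passed the filter on low counts within extraembryonic tissue alone. They entered the test through the discs and had to differ, so their p-values and their rank are no support for a difference. Each had 0 reads in 2 or 3 of the 22 discs.

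ITGB4, the partner of ITGA6 in hemidesmosomes (chromosome 19, 56472337 to 56506801), ran from 5.20 to 39.2 CPM in discs (median 15.2) and from 1.15 to 9.36 in extraembryonic tissue (median 3.97). It was lower in extraembryonic tissue in 21 of 22 embryos, by -2.01 on the log2 scale (SE 0.20, adjusted p = 6.91e-10). In the exception, the embryo of ED BASAL replicate 12, the disc had 5.20 CPM, the lowest of all discs, and the extraembryonic sample 8.38.

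**Figure D2:**
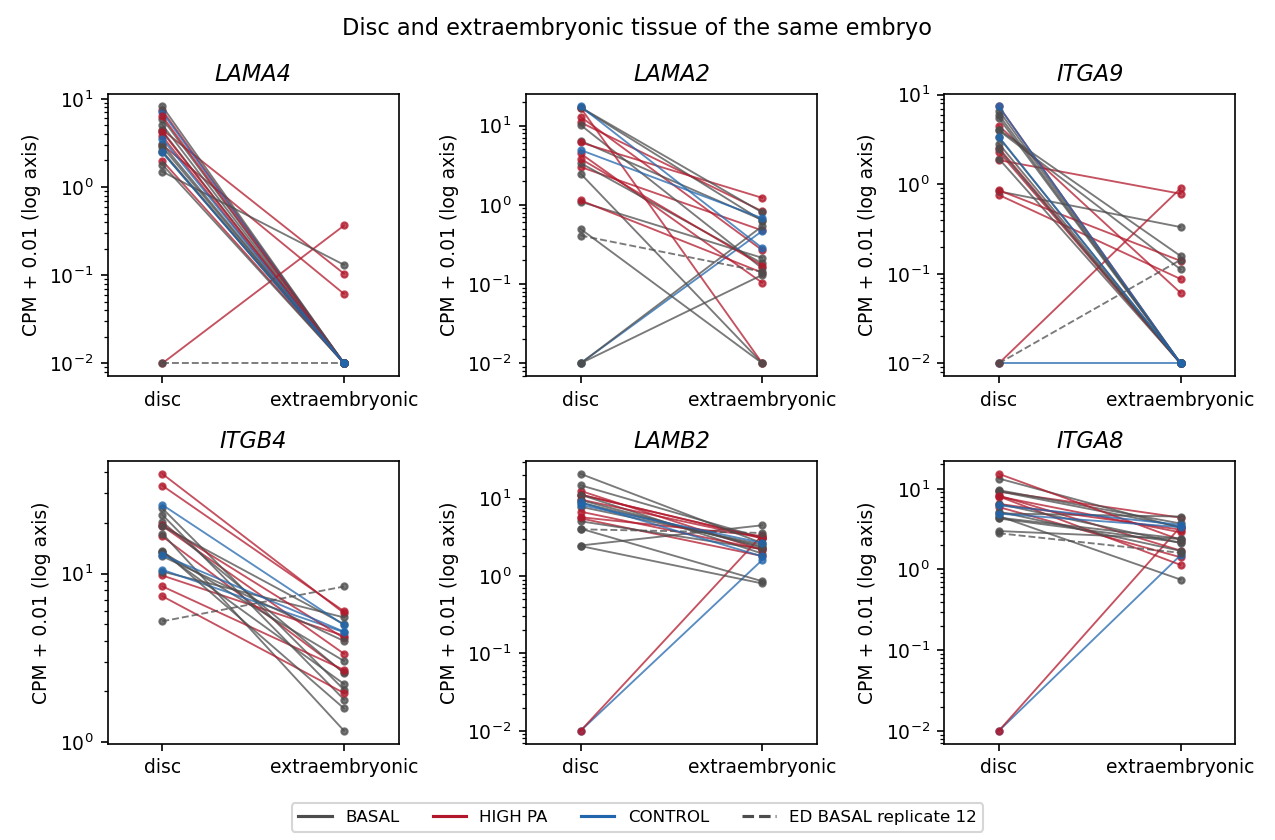
CPM plus 0.01 on a log axis for the 6 chains of lowest p shown here between tissues, with a line for each of the 22 embryos that had both parts at 10000 reads or more, coloured by maturation medium; the dashed line is the embryo of ED BASAL replicate 12. Nearly all lines fall from disc to extraembryonic tissue in each panel, and for ITGB4 the dashed line is the only one that rises.

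LAMB2, the beta chain of neuromuscular and vessel laminins, had 0 to 20.9 CPM in discs (median 8.06) and 0 to 5.37 in extraembryonic tissue (median 2.46), and changed by -1.42 on the log2 scale (SE 0.20, adjusted p = 4.20e-07). ITGA8, a receptor chain for nephronectin, ran from 0 to 15.3 CPM in discs (median 6.07) and from 0 to 12.2 in extraembryonic tissue (median 2.401), with a change of -1.15 (SE 0.18, adjusted p = 3.33e-06). Both were lower in most embryos, 19 and 20 of 22. ITGB2, the beta chain of leukocyte integrins, had 0 to 11.2 CPM in discs (median 1.72) and 0.155 to 5.88 in extraembryonic tissue (median 0.604), and fell by 1.79 on the log2 scale (SE 0.28, adjusted p = 3.78e-06). With 152 reads it did not pass the filter on low counts within extraembryonic tissue alone. Like LAMA4, LAMA2 and ITGA9 it entered the test through the discs, and its p-value carries the same limit. Leukocyte markers went both ways, where 24.5% of all features were higher and 30.8% lower. Of the 6 tested, 3 were called lower (LAPTM5, -2.97, CORO1A, -3.32, and CD74, -6.77) and 1 higher (CD68, 0.67). CORO1A and CD74 did not pass the filter within extraembryonic tissue alone, so their calls carry the same limit as that of ITGB2. CD14 (0.39) and AIF1 (-0.11) were not called. The 12 markers listed summed to a median of 24.6 CPM in discs (8.00 to 70.2) and 10.7 in extraembryonic tissue (6.69 to 76.5). CD74 alone had a mean of 12.2 CPM in discs and 0.0837 in extraembryonic tissue. PTPRC was at 0 in all extraembryonic libraries and in 20 of 22 discs, TYROBP in all discs and CD2 in both tissues. The part of these markers in the ITGB2 result was not tested.

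ITGA3 (15.6 to 109 CPM in discs, median 42.4, and 12.1 to 33.5 in extraembryonic tissue, median 20.7) was above every extraembryonic library in 17 of 22 discs and changed by -0.81 on the log2 scale (SE 0.13, adjusted p = 4.84e-06). ITGA2, a collagen receptor chain, had 0 to 17.8 CPM in discs (median 5.50) and 0 to 4.73 in extraembryonic tissue (median 2.31), a change of -1.23 (SE 0.28, adjusted p = 0.000443). ITGA2B, known as the platelet receptor chain, had medians of 2.50 and 1.17 CPM and a change of -0.66 (SE 0.25, adjusted p = 0.0261). Of 5 platelet markers, 3 were at 0 in every library and their sum never passed 0.400 CPM. The ITGA2B call was lost without ED HIGH PA replicate 4, without ED HIGH PA replicate 8 or without ED CONTROL replicate 2 (adjusted p = 0.0659, 0.0559 and 0.0543).

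Among the abundant chains the differences were small. ITGB1 (chromosome 13, 20248944 to 20292114) ran from 390 to 824 CPM in discs (median 659) and from 115 to 629 in extraembryonic tissue (median 430), a change of -0.50 on the log2 scale (SE 0.14, adjusted p = 0.00313). ITGB5 ran from 36.4 to 79.4 CPM (median 57.7) and from 24.1 to 73.0 (median 40.8), a change of -0.31 (SE 0.09, adjusted p = 0.00439). LAMA5, with medians of 186 and 130 CPM, changed by -0.36 (SE 0.11, adjusted p = 0.00672), and ITGA6, with 158 and 118, by -0.43 (SE 0.16, adjusted p = 0.0231).

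Not called were ITGA5 at -0.06, LAMC1 at -0.08, LAMB1 at 0.07, ITGAE at 0.13, ITGAV at -0.24, ITGB7 at -0.41 and ITGA11 at -0.81 (adjusted p = 0.0769, and 0.0386 in DESeq2). ITGAE shares its locus with GSG2, and as no source says whether the counting used strand, their reads cannot be told apart. LAMA1 (chromosome 24, 40384894 to 40508687), with 89.7 to 343 CPM in discs (median 231) and 80.9 to 548 in extraembryonic tissue (median 263), had the largest positive value, 0.31 (SE 0.14, adjusted p = 0.0626), and DESeq2 called it (0.39, adjusted p = 0.00896). On plain CPM most features are lower in extraembryonic tissue, with a median log2 ratio of mean CPM of -0.18 over all tested features against -0.01 for the fitted changes. Small differences such as that of ITGA5, lower by CPM in 18 of 22 embryos, should be read against that shift.

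**Figure D3:**
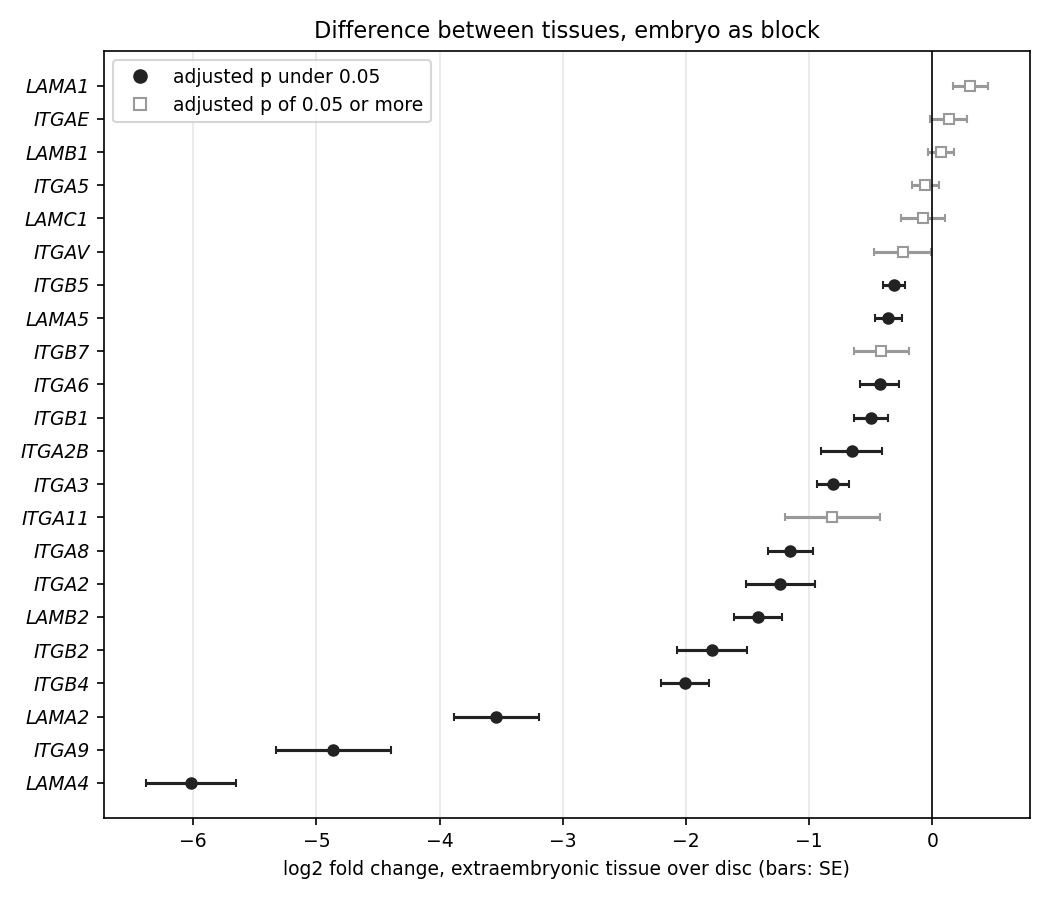
Log2 fold change of extraembryonic tissue over disc for 22 of the chains tested, from edgeR with embryo as a block (46 libraries), with bars of 1 SE; filled circles are adjusted p under 0.05 and open squares are not. The filled points lie below 0, from LAMA4 at -6.02 to ITGB5 at -0.31, and LAMA1, ITGAE and LAMB1 lie above 0 without being called.

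Leaving out the embryos whose extraembryonic column name carries mark 2 (34 libraries remain) changed the picture for the abundant chains. LAMA1 (0.55, adjusted p = 0.000767), LAMC1 (0.33, adjusted p = 0.0109) and ITGAV (0.29, adjusted p = 0.00718) were then higher in extraembryonic tissue, while the ITGB1 and ITGA6 calls were lost (-0.23, adjusted p = 0.0619, and -0.10, adjusted p = 0.277). The count became 13 lower and 3 higher. The share of all features called in that fit is not given here, so these counts are not set against it. ITGA6 was also not called without the embryo of ED BASAL replicate 7, a disc of 6814 reads (adjusted p = 0.0543), or without the block (adjusted p = 0.0981). LAMA1 was called higher in 8 of the 23 fits that leave out a single embryo, named here by its disc. These were the fits without ED BASAL replicates 4, 7, 10, 11 or 12 and without ED HIGH PA replicates 1, 2 or 7, with 0.35 without ED BASAL replicate 12. ITGA11 was called lower in 3 of them (without ED BASAL replicate 12, ED HIGH PA replicate 7 or ED HIGH PA replicate 8). RNA of the 2 tissues was also extracted with different versions of a kit, per the labels, and their libraries lay in mostly different plate rows, so these and the tissue cannot be told apart.

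Genes that work with these chains were counted in the same fit, to be read against the 24.5% of all features higher and 30.8% lower. As for the chains, a partner with few extraembryonic reads passed the filter through the discs alone and had to differ, so the counts and medians describe those that passed. Of 18 tested basement membrane partners, 14 were lower and 1 higher in extraembryonic tissue (median log2 fold change -0.97). COL15A1, a collagen of the basement membrane zone, had 35.9 ± 28.3 CPM in discs and 0 in 25 of 27 extraembryonic libraries (-10.22, SE 0.18, adjusted p = 9.62e-27). FRAS1 (-8.39), FREM2 (-6.03), which form a complex under embryonic epithelia, and the laminin-related NTN1 (-5.56) followed. The higher one was NID2, a linker of laminin to collagen IV (0.41, SE 0.14, adjusted p = 0.0144).

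Of 22 tested ligands of integrins other than laminins, 15 were lower and 3 higher (median -2.34). SPP1 or osteopontin (-6.28), the fibrillin FBN1 (-4.85), the tenascin TNC (-6.32) and the collagen chain COL1A2 (-4.93) were lower, and the secreted matricellular proteins CTGF (0.91), CYR61 (0.64) and NOV (1.15) were higher. CYR61 held 315 ± 122 CPM in discs and 408 ± 148 in extraembryonic tissue.

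Adaptors and kinases inside the cell gave 6 higher and 10 lower of 32 tested, with a median of -0.10, a share called below that of all features. FYN, a kinase of the SRC family (-7.78), the talin TLN2 (-1.32), PARVB (-2.35) and KANK2 (-3.23) were lower, and ITGB1BP1 (0.41), the tetraspanin CD151, which binds laminin receptors (0.43), TNS1 (0.60) and VCL (0.30) were higher. Of 18 tested genes that modify or cut laminins and other matrix proteins, 11 were lower and 1 was higher (median -0.34). The matrix protease MMP2 (108 ± 78.9 CPM in discs and 0.802 ± 1.84 in extraembryonic tissue, -7.98) and its activator MMP14 (-2.41) fell, as did the lysyl hydroxylases PLOD2 (-1.62) and PLOD1 (-1.49), whereas ISPD, needed to glycosylate dystroglycan, was higher (0.83). Over the same fit, 9 of 9 tested hypoblast markers and 4 of 4 epiblast markers were lower, and 7 of 11 trophectoderm markers were higher. Of 7 markers of primitive streak and mesoderm 6 were lower, among them EOMES (-9.32), HAND1 (-4.87) and KDR (-3.09), and SNAI1 was higher (0.59); the list summed to 65.6 to 361 CPM in discs and 28.1 to 208 in extraembryonic tissue. SOX2, NODAL, PRDM14, APOB, TF, CUBN, EOMES, T, MIXL1, FGF8 and KDR did not pass the filter within extraembryonic tissue alone. They entered the test through the discs and had to differ, so the marker counts describe those that passed. What these shifts contribute to the results above was not tested.

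Ovoid and tubular embryos were compared next, with medium and sex as terms. In extraembryonic tissue 6 of 22 tested chains were lower in ovoid embryos and 0 higher, where 12.7% of 10969 features were called (6.94% higher and 5.73% lower, and 8.93% called by DESeq2). The median over the chains was 0.03, and over all features 0.00. Among them were the laminin chains LAMA1 and LAMC1 and the integrin chains ITGB1, ITGAV and ITGA2, so the chains called were in part abundant ones. Between tissues ITGB1 was called lower (-0.50). LAMA1, LAMC1 and ITGAV were not called there with all embryos, and were called higher without mark-2 embryos.

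ITGA2 (chromosome 20, 25984554 to 26089593) had 0.739 to 4.73 CPM in 16 tubular samples (median 3.12), 0.322 to 2.58 in 9 ovoid samples (median 0.583) and 0 in both spherical ones. The log2 fold change of ovoid over tubular was -1.69 (SE 0.33, adjusted p = 0.00469). ITGAV, which with ITGB5 makes a vitronectin receptor (chromosome 2, 9651630 to 9760100), had 3.25 to 67.8 CPM in tubular samples (median 54.1) and 4.88 to 44.8 in ovoid ones (median 25.8), a change of -1.20 (SE 0.34, adjusted p = 0.0265). The lowest tubular value, 3.25, was that of EX BASAL replicate 11, the only tubular library with mark 2, and the next was 41.7. Apart from that sample the groups hardly overlapped, but the lowest ovoid values (4.88, 7.09, 8.73 and 11.4) were of mark-2 libraries too.

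LAMA1 had 80.9 to 548 CPM in tubular samples (median 284) and 112 to 260 in ovoid ones (median 203), a change of -0.63 (SE 0.18, adjusted p = 0.0298). LAMC1 had 35.2 to 429 CPM (median 241) and 64.1 to 220 (median 158), a change of -0.80 (SE 0.24, adjusted p = 0.0333). ITGB1 had 115 to 629 CPM (median 490) and 171 to 461 (median 357), a change of -0.58 (SE 0.18, adjusted p = 0.0420). All of these groups overlapped. DESeq2 called ITGAV, LAMA1, LAMC1 and ITGB1 and gave no adjusted p for ITGA2.

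The chains below the threshold went both ways. ITGA6 (-0.66), LAMA5 (-0.31) and LAMB1 (-0.22) had adjusted p of 0.0821, 0.114 and 0.131. ITGA11 (1.31), ITGB7 (0.55), ITGA2B (0.61), ITGB4 (0.48) and ITGA5 (0.34) had positive values with adjusted p from 0.0910 to 0.125. ITGA5, the fibronectin receptor chain, was at 249 ± 75.7 CPM in tubular and 314 ± 58.7 in ovoid samples.

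**Figure D4:**
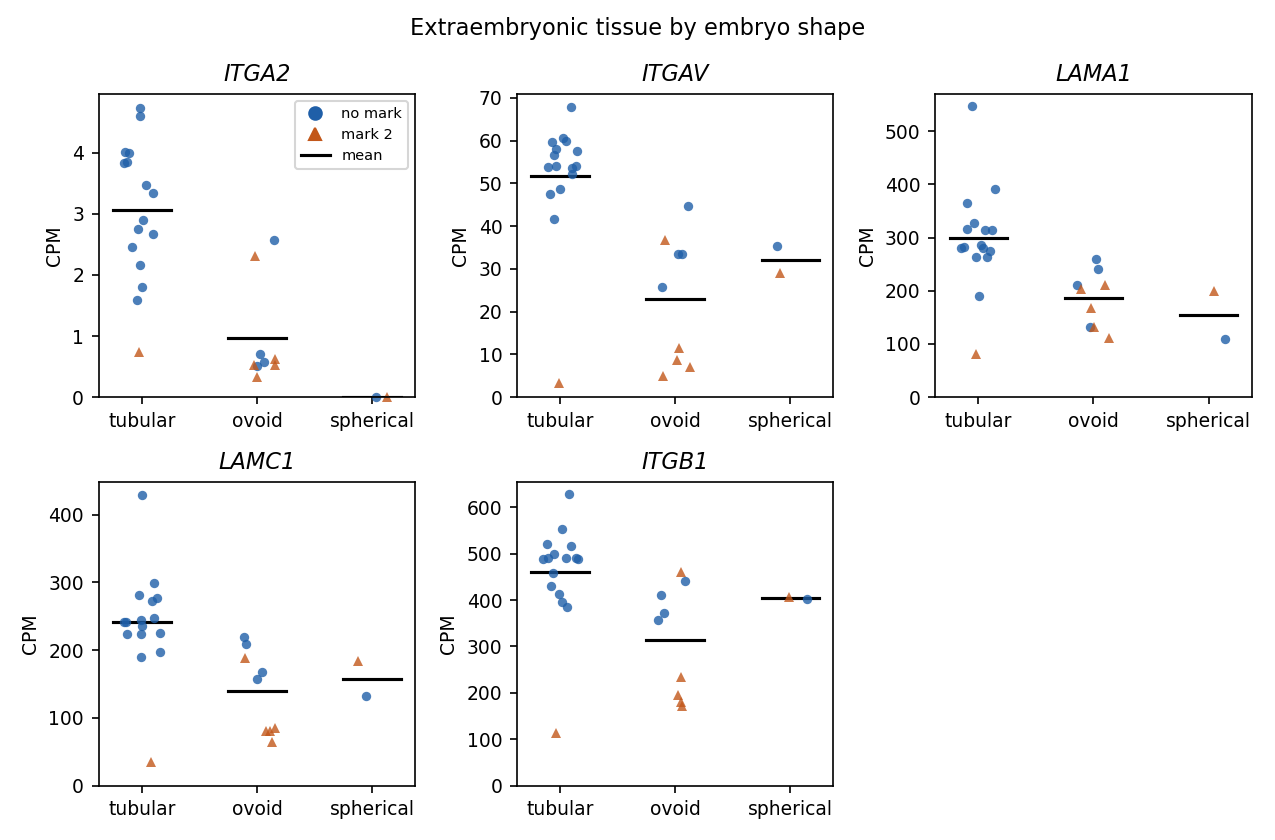
CPM of 5 chains called between ovoid and tubular embryos in extraembryonic samples (16 tubular, 9 ovoid, 2 spherical), with a line at each mean and with libraries that carry mark 2 in the column name shown as triangles. For ITGAV, LAMC1 and ITGB1 the 5 lowest points are triangles, the only tubular one among them, while the fifth ovoid triangle (36.8 CPM for ITGAV and 461 for ITGB1) and the spherical one lie among or above the round ovoid points.

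Mark 2 is spread unevenly over the shapes: 5 of 9 ovoid, 1 of 16 tubular and 1 of 2 spherical libraries carry it. The same 5 libraries, 4 ovoid and EX BASAL replicate 11, were the lowest of all 27 for ITGAV (3.25 to 11.4 CPM), LAMC1 (35.2 to 84.6), ITGB1 (115 to 233) and ITGA6 (17.3 to 62.4), and all carry the mark. Their mitochondrial share ran from 5.75% to 20.9%. Among libraries without the mark, ovoid samples (n = 4) still had lower means than tubular ones (n = 15): 34.4 ± 7.82 against 55.0 ± 6.24 CPM for ITGAV, 189 ± 30.4 against 255 ± 56.5 for LAMC1, 395 ± 38.01 against 483 ± 62.7 for ITGB1, 211 ± 56.2 against 313 ± 80.0 for LAMA1 and 1.098 ± 0.991 against 3.21 ± 0.973 for ITGA2.

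Fitted without the mark-2 libraries, 2 chains were called lower (ITGA2 and ITGAV) among 229 features in all, and with the mark as a term 0 were, the changes shrinking to -0.48 for ITGAV, -0.26 for LAMC1 and -0.21 for ITGB1. With recipient cow as a replicate block or with lane as a term no chain was called, although the 5 changes above were as large or larger with cow (-2.11 for ITGA2, -1.69 for ITGAV and -0.94 for LAMA1, each at an adjusted p of 0.232). The count of 6 also fell to 1 without EX BASAL replicate 5, without EX BASAL replicate 6 or without EX HIGH PA replicate 3, to 2 without EX BASAL replicate 8, and to 3 without EX HIGH PA replicate 7 or EX HIGH PA replicate 8. Without EX BASAL replicate 11 it was 8 lower and 1 higher. Shape, mark 2 and cow therefore cannot be told apart for most of these chains. ITGA2 kept its call in each of the 27 fits that leave out 1 library. The call was kept in 24 of them for ITGAV, 23 for LAMA1, 20 for LAMC1 and 8 for ITGB1.

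Partners in the same comparison went both ways with all libraries in the fit, 9 of 69 being higher and 8 lower where 6.94% and 5.73% of all features were. None of these 17 calls was kept with cow as a block, with mark 2 as a term or with lane as a term, and without mark-2 libraries only that of SHARPIN was (0.50, adjusted p = 0.0491). The values that follow are those with all libraries. Of 13 tested basement membrane partners BCAM, a laminin receptor outside the integrin family, was higher (0.35, adjusted p = 0.0489) and NID2 lower (-0.74, adjusted p = 0.0454). Among 12 tested ligands LTBP1 (-1.12, adjusted p = 0.0175) and FN1, the ligand of the ITGA5 and ITGB1 pair (-0.74, adjusted p = 0.0483), were lower and 0 higher. FN1 was at 4510 ± 1925 CPM in tubular and 2523 ± 895 in ovoid samples. Of 28 adaptors 5 were higher, among them SHARPIN (0.64), CD81 (0.89), BCAR1 (0.56) and CD151 (0.66), and 3 were lower, CD47 (-0.59), the talin TLN1 (-0.53) and the kindlin FERMT2 (-0.40). Of 16 modifying genes TIMP1 (1.18), B4GAT1 (0.34) and POMT2 (0.46) were higher and P4HA1 (-0.88) and ISPD (-0.63) lower. Markers of cell types moved with shape in the same fit. Of 11 trophectoderm markers PTGS2 (-2.68, adjusted p = 0.00453) and IFNT2 (-1.13, adjusted p = 0.0190) were lower and GATA2 (0.57, adjusted p = 0.00939) and ELF3 (0.84, adjusted p = 0.0304) higher in ovoid samples, and of 6 hypoblast markers GATA4 (0.50) and SOX17 (0.58) were higher. Of these calls GATA2 alone was kept without mark-2 libraries, and none with cow as a block, mark 2 as a term or lane as a term. Trophectoderm markers summed to 17389 to 37883 CPM in tubular and 17977 to 28214 in ovoid samples. The part of these markers in the results was not tested.

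In discs no chain was called between shapes (21 tested, 0 of 11040 features called, 0% in edgeR and 0.154% in DESeq2, with 806 features and 1 chain at an unadjusted p under 0.05). Values below the threshold included those of ITGA6 (-0.22, SE 0.13, adjusted p = 0.736) and LAMA2 (-1.28, SE 0.75, adjusted p = 0.749). ITGAV, lower in ovoid extraembryonic tissue, was at 48.8 ± 11.1 CPM in tubular and 46.3 ± 13.0 in ovoid discs. The difference of the shape effect between tissues was tested itself and no chain was called (0% of 11921 features in edgeR and 0.562% in DESeq2). The lowest p values belonged to ITGA9 (2.87, SE 0.99, adjusted p = 0.255), ITGB4 (0.92, SE 0.32, adjusted p = 0.261) and ITGAV (-1.23, SE 0.45, adjusted p = 0.264).

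The maturation medium of the oocyte, the question of the study, left no chain called in either tissue. In each of the 6 comparisons of media edgeR called 0 chains and 0% of all features, and DESeq2 called 0 chains. The share of features called by DESeq2 was 0.0181% for HIGH PA against BASAL in discs, 0.00912% for BASAL against CONTROL and 0.00912% for HIGH PA against CONTROL in extraembryonic tissue, and 0% in the other 3. At an unadjusted p under 0.05 there were 1004 features but 0 chains for HIGH PA against BASAL in discs, and 531 features and 1 chain for the same comparison in extraembryonic tissue. The typical 95% interval of a chain, from the median SE, was its log2 fold change ± 0.59 in discs and ± 0.54 in extraembryonic tissue. It is not corrected for the number of features tested, and rare chains had wider ones (LAMA2 in discs, SE 0.76). Changes of that size and larger could therefore be missed.

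For HIGH PA against BASAL in discs, the lowest p was that of ITGB1, with 429 to 736 CPM in 11 BASAL discs (median 614) and 599 to 824 in 8 HIGH PA discs (median 754), a log2 difference of 0.32 (SE 0.16, adjusted p = 0.556). ITGB4 had 5.20 to 24.4 CPM (median 13.7) and 7.34 to 39.2 (median 17.9), a difference of 0.56 (SE 0.30, adjusted p = 0.576). ITGB2 had 0.400 to 5.70 CPM (median 2.43) and 0 to 11.2 (median 1.49), a difference of 1.06 (SE 0.60, adjusted p = 0.597). The values of all 3 overlapped between media, and the medians of ITGB2 ran against its fitted sign. Over the 21 chains 14 had positive and 7 negative values, with a median of 0.24 against 0.01 for all features. All 5 beta chains were among the 14, and the split of signs was not tested. Without ED BASAL replicate 12 the difference was 0.30 for ITGB1, 0.43 for ITGB4 and 0.89 for ITGB2.

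For the same comparison in extraembryonic tissue ITGB7, the beta chain of gut-homing lymphocyte integrins, had 0.976 to 3.87 CPM in 13 BASAL samples (median 2.16) and 1.63 to 12.2 in 10 HIGH PA samples (median 3.74). The difference was 0.73 (SE 0.29, adjusted p = 0.999). ITGB6 had 0 to 1.64 CPM (median 0.634) and 0.102 to 7.49 (median 1.20), a difference of 0.84 (SE 0.49, adjusted p over 0.999), and LAMB1 had 202 to 541 (median 347) and 258 to 419 (median 324), a difference of -0.17 (SE 0.12). The highest ITGB7 and ITGB6 values were both from EX HIGH PA replicate 10, a spherical embryo. The chains split into 12 positive and 10 negative values, with a median of 0.03.

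**Figure D5:**
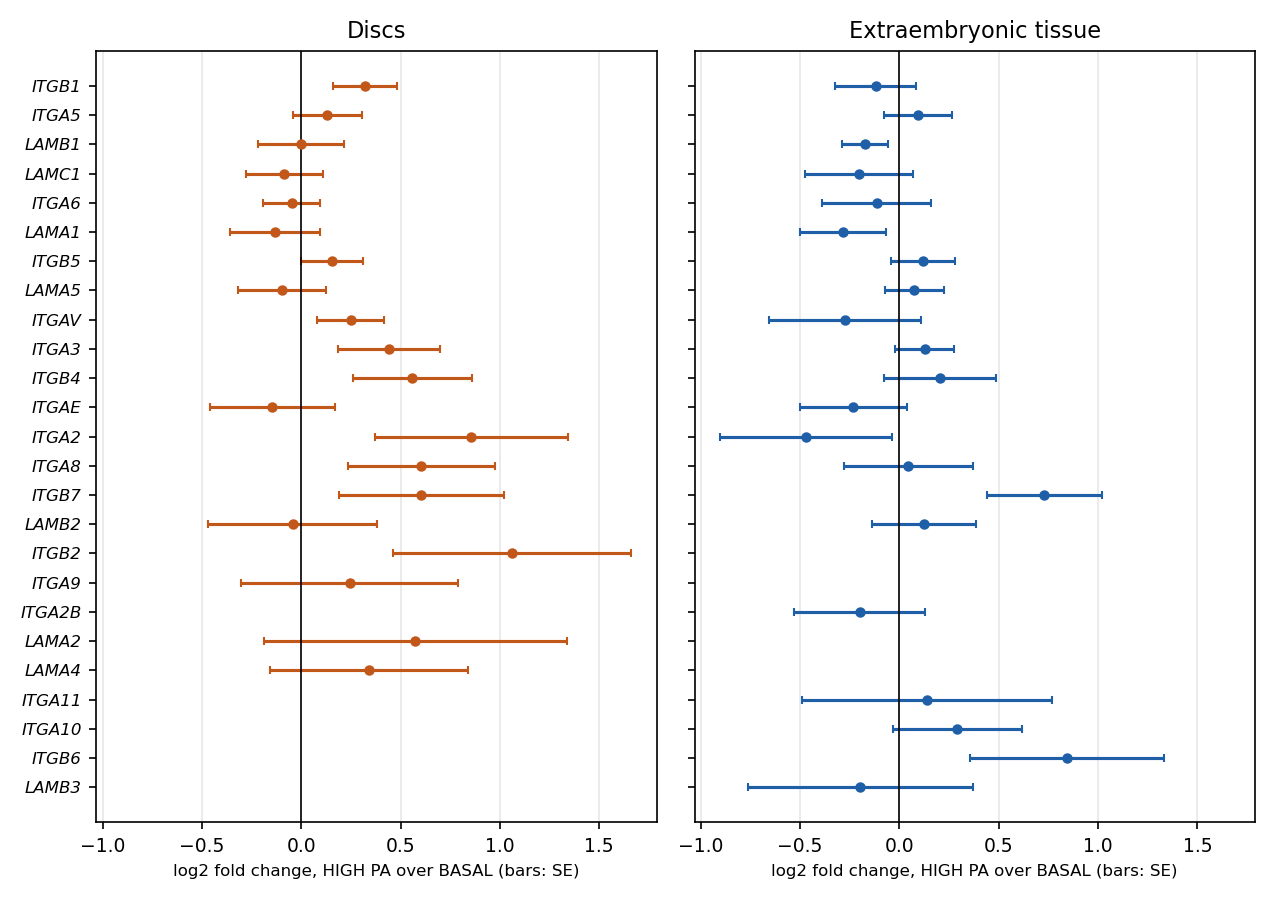
Log2 fold change of HIGH PA over BASAL for the chains tested in discs (left, 20 chains) and in extraembryonic tissue (right, 21 chains), in the order of their level per length, with bars of 1 SE. Most intervals of 1 SE are wide or cross 0, the largest value in discs being ITGB2 at 1.06 and in extraembryonic tissue ITGB6 at 0.84, and no point was called.

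Against CONTROL, which rests on 3 discs, ITGA6 had the lowest p for both other media. Its CONTROL values were 105, 109 and 117 CPM, against 109 to 200 in BASAL (median 165) and 115 to 212 in HIGH PA (median 155), so CONTROL discs lay at the low end. The log2 difference was 0.56 (SE 0.20, adjusted p over 0.999) for BASAL and 0.52 (SE 0.20, adjusted p over 0.999) for HIGH PA, and both use the same CONTROL discs. LAMC1 (0.50, SE 0.27) and ITGA9 (-0.96, SE 0.69) followed for BASAL, and ITGB1 (0.44, SE 0.23) and ITGA8 (0.80, SE 0.52) for HIGH PA. CONTROL values of LAMC1 were 91.3, 240 and 182 CPM, the first from ED CONTROL replicate 1 with 284848 reads.

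In extraembryonic tissue ITGB7 led for HIGH PA against CONTROL, with 2.19, 0.835, 1.38 and 3.69 CPM in the 4 CONTROL samples and a difference of 0.92 (SE 0.42, adjusted p = 0.507), then ITGA5 (0.42, SE 0.24) and ITGA3 (0.35, SE 0.21). For BASAL against CONTROL it was ITGA5, with 265, 204, 220 and 231 CPM in CONTROL and 145 to 467 in BASAL (median 258), a difference of 0.33 (SE 0.23, adjusted p = 0.881), then ITGA11 (1.19, SE 0.92) and ITGA2B (0.56, SE 0.45). The CONTROL values of ITGA5 lay within the range of BASAL, while for ITGB7 2 of 4 lay below every HIGH PA sample. Whether the HIGH PA effect differed between tissues was tested too, with no call (0% of 11921 features in edgeR and in DESeq2, 366 features and 0 chains at an unadjusted p under 0.05), with the lowest p for ITGA8 (-0.69, SE 0.42), LAMA4 (1.29, SE 0.85) and ITGA2 (-0.90, SE 0.70), each at an adjusted p of 1.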

How the data were processed

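Bovine embryo RNA was sequenced as stranded mRNA libraries, per the labels' protocols. The deposited table holds, for 53 libraries, raw counts of exon reads, of uniquely placed exon reads and of intron reads per feature, and exon lengths. The submitters' processing notes name the UMD3.1 build and DESeq2 1.10.1, and no source used here names an aligner.

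The exon counts were tested in edgeR 4.0.16 by its quasi-likelihood test after TMM scaling and its default filter on low counts, in R 4.3.3, over all features, and a Benjamini-Hochberg adjusted p under 0.05 made a call. Tissues were compared with embryo as a block in the 23 embryos with both parts, which come from the same animal. Media were compared with sex as a term and shapes with medium and sex as terms, within each tissue; spherical samples entered as a shape of their own, and the extraembryonic sample of undetermined sex was left out. Fits keep the 2 libraries under 10000 reads, and levels leave them out. SE was taken as the size of the log2 fold change divided by the root of its F statistic. The scripts were tested on simulated data. Of 53 libraries, 0 pairs were identical.

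All 36 genes are counted, and 1 of them is not reported here by name. Values are given for called genes, otherwise for the 3 of lowest p and any called by DESeq2 1.42.0, and for up to 4 called genes of lowest p per direction in 4 partner lists. The genes and lists were chosen with earlier results of these data known. Between tissues, p-values measure the spread of the difference within embryos. Between media and shapes they measure the spread between embryos, and embryos of the same cow count as independent unless cow is a block. Alternatives were DESeq2, its size factors, no filter, unique reads, cow as a block, further terms and libraries left out; those on mark 2 in the fits by shape and media, lane, single embryos and partner genes were added after seeing the data. Figures were drawn with matplotlib 3.10.9 in Python 3.11.15.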

Additional observations from a re-analysis of the deposited data

Results flagged for a closer look

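In 8 of 65 sets checked, each being 1 chain in 1 group, a single library stood apart from the rest of its group. Only groups of 4 to 10 libraries were checked. The BASAL groups (11 discs and 13 extraembryonic samples) and the 3 CONTROL discs were left out. ED BASAL replicate 12 and EX BASAL replicate 11 were therefore not examined in this check. The cut-off gives about 1 in 20 for independent values with a normal spread. Low counts do not have such a spread and the sets share libraries, so the 8 cannot be set against chance. EX HIGH PA replicate 10, a spherical embryo with mark 2 and 1068407 reads, was the highest of 10 for ITGA8 (12.2 CPM, the next at 4.38) and for ITGB7 (12.2, the next at 5.88). It was the lowest for ITGAE (0, the next at 5.06). EX HIGH PA replicate 1 was the highest for LAMA4 at 0.356 CPM, where the next held 0.0938. Among 8 HIGH PA discs, replicate 4 was the highest for ITGB2 (11.2 CPM, the next at 4.65) and replicate 3 for LAMA5 (323, the next at 191). Among 4 CONTROL extraembryonic samples, replicate 1 was the highest for ITGA11 (0.686 CPM, the next at 0.230) and replicate 4 for ITGA9 (0.194, the others at 0).

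The undissected spherical embryo EXED HIGH PA replicate 1, in no comparison, was above all 7 CONTROL libraries for 4 of 22 chains: ITGA5 at 456 CPM (highest CONTROL 353), ITGA8 at 10.7 (6.22), ITGB5 at 80.3 (66.7) and LAMB2 at 9.95 (8.94). The other undissected embryo, EXED HIGH PA replicate 2, was above all 7 for no chain. A single library can lie above 7 others by chance for some of 22 chains, so the 4 are not read as a difference.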

How the results depend on the processing

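Between tissues the count of lower chains, 15 of 23 in the main fit, ran from 13 to 21 over the alternatives. These were DESeq2, edgeR with its size factors, unfiltered counts and unique reads. The others were no libraries under 10000 reads, no replicate block (14 lower and 0 higher) and no mark-2 embryos. Without the filter, chains with few or no extraembryonic reads were tested too, so that count cannot be set beside 15 of 23. The main fit called 6592 features in all, DESeq2 7283 and edgeR with its size factors 7005. Leaving out single embryos gave 6269 to 6856, and the numbers for the other alternatives are not given here. The count of higher chains, 0, became 1 with DESeq2, with its size factors, with no filter and without libraries under 10000 reads, and 3 without mark-2 embryos; leaving out single embryos gave 0 to 1 higher. Signs turned for ITGA5 (0.00976 in DESeq2 and 0.0119 with its size factors), for LAMC1 in DESeq2 (0.0128), and without mark-2 embryos for ITGAV (0.29), LAMC1 (0.33) and ITGAE (-0.0589). With cow as a replicate block they turned in extraembryonic tissue for ITGA5 (-0.16) and ITGA11 (-0.51) in BASAL against CONTROL and for ITGA5 (-0.0185) in HIGH PA against CONTROL; the block changed no call on media. The cause of these changes was not tested.

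For shape in extraembryonic tissue the 6 lower chains became 0 with cow as a replicate block, 0 with mark 2 as a term, 0 with lane as a term, 2 with plate row as a term, 2 without mark-2 libraries and 1 with BASAL and HIGH PA only, where CONTROL samples are missing. All features called, 1390, became 0, 21, 2, 497, 229 and 515 in the same order. Leaving out single libraries gave 1 to 8 lower chains, 0 to 1 higher chains and 311 to 4340 features. Of 63 values of the 6 chains under these alternatives, 32 kept their call, 31 lost it and 0 turned sign.

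Features called for media and interactions rose from 0 to 2 (DESeq2) and 4 (no filter) for HIGH PA against BASAL in discs, and to 9 (no filter) and 1 (without mark-2 libraries) in extraembryonic tissue. They rose to 1 in DESeq2 for BASAL and for HIGH PA against CONTROL in extraembryonic tissue, to 17 in DESeq2 for shape in discs, and to 67 in DESeq2, 24 with no filter and 3 without ED BASAL replicate 12 for the difference of the shape effect. No chain was among the calls of those comparisons. Depth limits the rare chains most: 119116 reads in the shallowest disc used for levels make 1 read worth several CPM.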
